A study of Mus musculus with 6 samples.

Results

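Enhancer-gene pairs whose element lay more than 1 Mb from the transcription start site (TSS) of its target gene were taken from predictions made in mouse oligodendrocyte precursor cells (OPCs). Members were all listed pairs with a distance above 1000000 bp. They numbered 3408 of 66637 pairs in control OPCs (Ctr-OPCs) and 3525 of 71478 in IFN-γ-treated OPCs (IFN-γ-OPCs), or 6933 of 138115 in all. The pairs came from 6 H3K27ac-HiChIP libraries, 3 per condition, of cultured primary OPCs. The pups, 4 to 6 days old, carried Sox10-Cre/RCE, in which Cre under Sox10 control switches on a green fluorescent reporter throughout the oligodendrocyte lineage. The labels give the strain as C57BL/6j, while the study's methods put the RCE parent line on a mixed C57BL/6xCD1 background. Several brains were pooled per experiment, and each replicate came from other litters. All cells grew in proliferation medium. From 24 h after passaging, one group stayed in that medium, while IFN-γ at 100 ng/mL was added for the other. The culture methods give the length of treatment as 48 h. Both groups shared genotype, strain and medium, and differed in IFN-γ alone as far as the labels say. OPCs were obtained by sorting for the reporter or with CD140a beads, and the sources do not say which was used here.

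Each condition had 1 table made from its 3 libraries together. No value below has a replicate error, no test between conditions could be made, and the depth behind a contact is unknown. All 6 oligodendrocyte lineage markers checked (Pdgfra, Cspg4, Sox10, Olig1, Olig2, Ptprz1) were target genes in both tables, with a median promoter activity quantile of 0.93 in control OPCs and 0.94 in IFN-γ-OPCs, where 1 is the most active promoter. Of 6 microglial markers, 3 and 5 were listed, at a median of 0.62 in both. All 6 neuronal markers were listed, at 0.71 and 0.72. Of 6 astrocyte markers 4 were listed in each table, at 0.70 in Ctr-OPCs and 0.63 in treated OPCs, and of 6 endothelial markers 3 and 5, at 0.73 and 0.60. The tables hold chromatin and not RNA, and list only genes with a quantile of 0.4 or more. The part of other cell types in the pairs below was not tested.

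An enhancer is a stretch of DNA that raises transcription of a gene from a distance, and it is marked by open chromatin and by acetylation of histone H3 at lysine 27 (H3K27ac). Contacts between 2 loci on a chromosome become rarer as the distance between them grows, and most known enhancer contacts lie within one topological domain. The activity-by-contact (ABC) model scores an element for a gene as its activity times its contact with the promoter, divided by the sum of these products over all elements around the gene. The score is thus a share within the gene. Only pairs with a score of at least 0.02 were listed. By construction, a pair at long range reached this floor only with high activity, with contact above what its distance gives, or at a gene whose other elements added up to little.

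Some elements singled out in the results are shown first, each by 300 bases of the plus strand of GRCm38/mm10, read from the reference genome. The first 4 are from loci that each held many far targets and are shown for the stretches they have in common in pairs. In the elements in an intron of Gm33838 (chr9:35305221-35305520) and in a coding exon of Gm21738 (chr14:19415719-19416018), capitals mark a run of 63 bases that both hold. In the elements in an intron of Chl1 (chr6:103649022-103649321) and in a coding exon of Gm10800 (chr2:98666239-98666538), capitals mark the CENP-B box, TTCGNNNNANNCGGG on the minus strand, which centromere protein B binds.
Gm33838 element: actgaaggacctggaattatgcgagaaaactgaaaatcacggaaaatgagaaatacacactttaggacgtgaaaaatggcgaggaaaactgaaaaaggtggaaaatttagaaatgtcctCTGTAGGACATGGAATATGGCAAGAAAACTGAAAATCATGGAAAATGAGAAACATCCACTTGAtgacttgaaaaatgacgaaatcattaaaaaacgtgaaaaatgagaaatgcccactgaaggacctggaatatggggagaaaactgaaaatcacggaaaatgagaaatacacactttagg
Gm21738 element: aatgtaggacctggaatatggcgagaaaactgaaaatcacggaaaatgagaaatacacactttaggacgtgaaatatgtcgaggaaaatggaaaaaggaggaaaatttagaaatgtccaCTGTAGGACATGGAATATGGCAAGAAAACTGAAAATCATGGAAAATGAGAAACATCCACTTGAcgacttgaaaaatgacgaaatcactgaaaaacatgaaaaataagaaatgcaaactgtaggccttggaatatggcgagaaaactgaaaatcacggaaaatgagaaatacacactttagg
Chl1 element: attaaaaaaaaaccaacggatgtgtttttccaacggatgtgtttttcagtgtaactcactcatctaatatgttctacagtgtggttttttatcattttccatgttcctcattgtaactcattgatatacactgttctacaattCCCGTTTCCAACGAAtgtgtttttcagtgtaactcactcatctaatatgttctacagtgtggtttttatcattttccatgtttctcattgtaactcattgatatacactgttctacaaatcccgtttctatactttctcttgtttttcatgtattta
Gm10800 element: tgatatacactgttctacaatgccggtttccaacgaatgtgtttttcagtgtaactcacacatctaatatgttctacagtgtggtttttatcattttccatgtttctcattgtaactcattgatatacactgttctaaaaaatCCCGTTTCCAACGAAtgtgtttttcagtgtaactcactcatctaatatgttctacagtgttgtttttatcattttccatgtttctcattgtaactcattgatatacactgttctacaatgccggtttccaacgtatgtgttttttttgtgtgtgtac
The fifth is the middle of an exon element of Gm26917 (chr17:39845468-39845767), next to a ribosomal RNA gene, with its CpG dinucleotides in capitals.
Gm26917 element: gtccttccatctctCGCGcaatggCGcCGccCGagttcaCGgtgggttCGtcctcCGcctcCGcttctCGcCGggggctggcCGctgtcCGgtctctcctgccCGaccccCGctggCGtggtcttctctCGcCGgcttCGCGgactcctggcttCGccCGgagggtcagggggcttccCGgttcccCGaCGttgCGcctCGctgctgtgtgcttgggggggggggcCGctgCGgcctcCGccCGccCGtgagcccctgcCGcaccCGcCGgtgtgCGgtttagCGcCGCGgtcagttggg
The sixth lay between genes upstream of Ptprz1 (chr6:22834336-22834635) and led the elements outside these loci in Ctr-OPCs, with the SOX core ACAAAG in capitals.
Ptprz1-upstream element: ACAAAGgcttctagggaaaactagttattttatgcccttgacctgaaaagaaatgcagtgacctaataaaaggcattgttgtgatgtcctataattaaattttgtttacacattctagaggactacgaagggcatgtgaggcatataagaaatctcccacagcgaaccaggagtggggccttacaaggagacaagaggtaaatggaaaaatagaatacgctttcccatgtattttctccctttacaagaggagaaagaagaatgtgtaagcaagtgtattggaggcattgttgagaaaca
The last 2 carried the pairs with measured contact described below, the highest one in IFN-γ-OPCs (element of Diaph2, chrX:131818450-131818749) and the highest of a protein-coding gene when matched pairs were ranked by the smaller of their 2 contacts (element of Nkain2, chr10:31742471-31742770), with CpG dinucleotides in capitals.
Diaph2-paired element: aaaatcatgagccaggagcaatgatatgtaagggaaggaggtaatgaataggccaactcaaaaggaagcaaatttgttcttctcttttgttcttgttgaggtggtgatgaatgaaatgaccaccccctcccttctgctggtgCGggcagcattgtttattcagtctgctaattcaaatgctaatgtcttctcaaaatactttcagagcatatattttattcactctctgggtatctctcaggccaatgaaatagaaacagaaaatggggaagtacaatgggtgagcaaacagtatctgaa
Nkain2-paired element: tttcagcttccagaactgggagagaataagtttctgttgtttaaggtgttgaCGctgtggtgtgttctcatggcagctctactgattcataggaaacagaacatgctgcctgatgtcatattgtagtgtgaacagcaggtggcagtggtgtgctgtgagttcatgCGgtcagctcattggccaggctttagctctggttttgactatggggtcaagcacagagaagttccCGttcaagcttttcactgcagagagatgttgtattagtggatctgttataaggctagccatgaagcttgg

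Pairs over 1 Mb made up 5.11% of all pairs in Ctr-OPCs and 4.93% in treated OPCs. They joined 2076 elements with 2261 target genes in Ctr-OPCs, and 2265 elements with 2508 genes in IFN-γ-OPCs. The median distance was 1709 kb in control OPCs and 1808 kb in treated OPCs, while the longest was 4981 and 4999 kb. From 1 to 2 Mb there were 2037 pairs in Ctr-OPCs and 1970 in treated OPCs, and from 4 to 5 Mb 289 and 358. The element lay upstream of its gene in 49.9% of pairs in both tables. A median of 5 protein-coding TSSs in control OPCs and 6 in IFN-γ-OPCs lay between element and target, against 0 for pairs of at most 1 Mb. No protein-coding TSS lay between in 6.78% of far pairs in Ctr-OPCs and 6.41% in treated OPCs, against 70.4% of nearer pairs in both. Far pairs thus nearly always passed over other genes.

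The X chromosome had the highest share of far pairs. Of 1864 pairs on X in Ctr-OPCs 12.2% were far, and of 1780 in IFN-γ-OPCs 10.7%. The lowest shares in Ctr-OPCs were 1.56% on chromosome 19, 1.77% on 11 and 2.36% on 7. In IFN-γ-OPCs they were 1.78% on 11, 2.52% on 7 and 2.58% on 19. Far pairs were thus unevenly spread over the 20 chromosomes listed, and the same 3 had the lowest shares in both tables.

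In the 50 kb just inside the limit of 1 Mb there were 226 pairs in control OPCs and 218 in IFN-γ-OPCs, and in the 50 kb just outside it 230 and 179. Median activity inside and outside was 2.48 and 2.67 in Ctr-OPCs and 2.04 and 2.48 in IFN-γ-OPCs. A contact of 0 was found for 20.8% inside and 26.96% outside in Ctr-OPCs, and for 17.9% and 13.4% in IFN-γ-OPCs. The share of pairs that the other table also listed was 15.5% inside and 9.57% outside in Ctr-OPCs, and 16.1% and 13.4% in IFN-γ-OPCs.

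Elements of far pairs were more active than those of all nearer pairs pooled, but not more active than those of pairs from 0.5 to 1 Mb. Activity is a unitless signal made from ATAC-seq and H3K27ac coverage. Its median over far pairs was 2.12 in Ctr-OPCs (quartiles 1.15 and 3.72) and 2.11 in treated OPCs (1.05 and 3.63), against 1.25 and 1.17 over pairs of at most 1 Mb. With each element counted once it was 1.53 and 1.499, against 0.868 and 0.805. By distance class, the median over pairs from 0.5 to 1 Mb was 2.38 in Ctr-OPCs and 2.115 in treated OPCs. From 0.1 to 0.5 Mb it was 2.23 and 2.055, and below 0.01 Mb 0.807 and 0.735. High activity was thus not particular to far pairs. The score floor itself selects for active elements at long range. Far pairs had genic elements in 67.3% and 65.1% of cases and intergenic ones in 32.7% and 34.9%. For nearer pairs 70.3% and 69.0% were genic. By this deposited class, far elements differed little from others. Their GC content had a median of 47.6% and 47.2%, against 50.5% and 49.8% for elements of nearer pairs.

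Contact of far pairs was below that of nearer pairs, but mostly above the level the model gives for distance alone. Contact is a relative frequency between 5 kb bins, and its scale between the conditions is not given in the sources used here. The median contact of far pairs was 0.00247 in control OPCs and 0.00341 in IFN-γ-OPCs, against 0.0199 and 0.0205 for nearer pairs. Divided by the contact that a power law of distance gives, the median was 3.39 in Ctr-OPCs and 4.66 in treated OPCs, against 0.440 and 0.475. Contact exceeded the power law in 74.97% and 82.4% of far pairs, and in 13.8% and 17.2% of nearer ones. If contact had been set to the power law alone, 12.3% of far pairs in control OPCs and 9.05% in IFN-γ-OPCs would have reached the floor of 0.02. For nearer pairs this share was 79.2% and 76.5%. That score also recomputes the total of the gene by which it is divided, so it does not isolate contact.

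A second kind of far pair had no measured contact. Contact was exactly 0 in 722 far pairs of Ctr-OPCs (21.2%, Wilson 95% interval 19.9 to 22.6) and in 568 of IFN-γ-OPCs (16.1%, 14.9 to 17.4). Among nearer pairs the share was 1.15% and 0.827%. These intervals cover counting error alone and treat pairs as independent, although pairs share elements and bins. In every one of these 722 and 568 pairs the adjusted contact, which enters the score, equalled the power-law value with a difference of 0, so their scores rested on the activity of the element, the power law and the gene total. The median gene total was 0.141 in Ctr-OPCs and 0.292 in treated OPCs where contact was 0, against 0.241 and 0.284 where it was above 0. Median activity over pairs was 4.23 in Ctr-OPCs and 9.57 in treated OPCs where contact was 0, against 1.79 and 1.77 where it was above 0. A few elements with many pairs weighed on these medians. Outside the 5 loci described below, with each element counted once, the median was 2.81 and 3.30 where contact was 0, against 1.48 and 1.47.

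**Figure D1:**
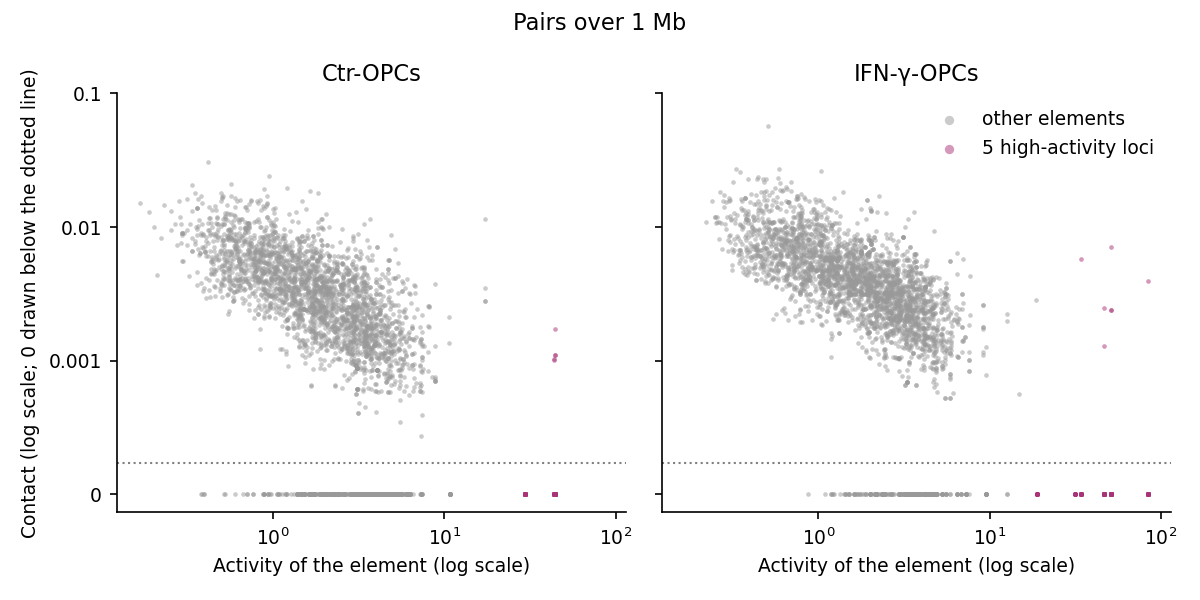
Activity of the element (x axis, log scale, no unit) against contact (y axis, log scale, no unit) for each pair over 1 Mb in Ctr-OPCs (left) and IFN-γ-OPCs (right). Pairs with a contact of 0 are drawn below the dotted line, and purple points are pairs of the 5 high-activity loci (Gm33838, Gm26917, Chl1, Gm10800 and Gm21738), which sit at activities from 19.0 to 84.1, nearly all at a contact of 0.

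The plot of activity against contact shows both kinds. Where contact was above 0, the points spread over a wide range of activity and contact, and the score floor leaves out pairs in which both were low. The pairs with a contact of 0 formed a band that reached from ordinary activities to the highest in each table.

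The share of pairs with a contact of 0 changed with distance in both tables. It was 14.3% in control OPCs and 10.02% in IFN-γ-OPCs from 0.5 to 1 Mb, and 21.9% and 14.2% from 1 to 2 Mb. In IFN-γ-OPCs it was higher in each further class, with 16.1% from 2 to 3 Mb and 20.1% from 3 to 4 Mb. In Ctr-OPCs it was 22.2% and 21.9% there. From 4 to 5 Mb the order of the tables turned, with 12.8% in Ctr-OPCs (Wilson 95% interval 9.43 to 17.1) and 21.8% in treated OPCs (17.8 to 26.4). Without the 5 high-activity loci described below, 16.2% of far pairs in control OPCs and 8.92% in IFN-γ-OPCs had a contact of 0.

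**Figure D2:**
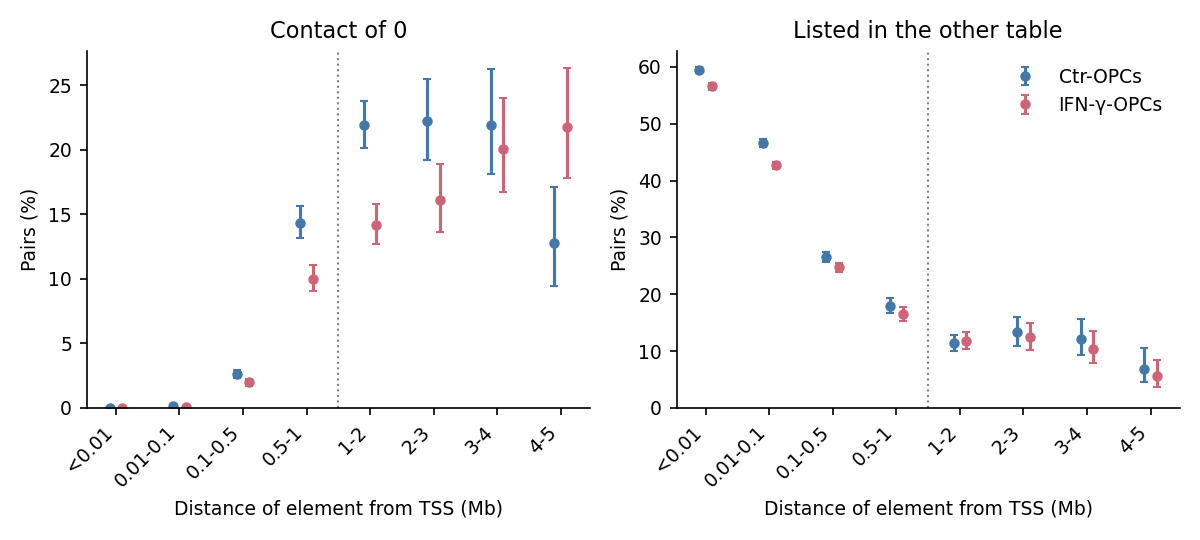
Percent of pairs with a contact of 0 (left) and percent listed in the other table (right) by distance of the element from the TSS in Mb, for Ctr-OPCs (blue) and IFN-γ-OPCs (red). Points are shares, bars are Wilson 95% intervals for counting error, and the dotted line is the limit of 1 Mb, beyond which the share listed in the other table lies between 5.59% and 13.3%.

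Target genes of far pairs were less often protein-coding. They were protein-coding in 910 pairs of Ctr-OPCs (26.7%) and 1122 of IFN-γ-OPCs (31.8%), against 44.1% and 43.9% of nearer pairs. With each gene counted once, 29.5% and 34.8% of far targets were protein-coding. Processed pseudogenes, copies of messenger RNAs put back into the genome, were the target of 29.96% of far pairs in Ctr-OPCs and 24.3% in treated OPCs, against 12.1% and 12.3% of nearer pairs. Genes of small nucleolar RNAs made up 5.81% and 5.99%, against 2.55% and 2.78%. Antisense transcripts were rarer among far targets, with 3.67% and 4.99% against 8.49% and 8.41%. Long intergenic RNAs were close to their share at shorter range, with 13.2% and 13.0% against 11.3% and 11.3%.

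**Figure D3:**
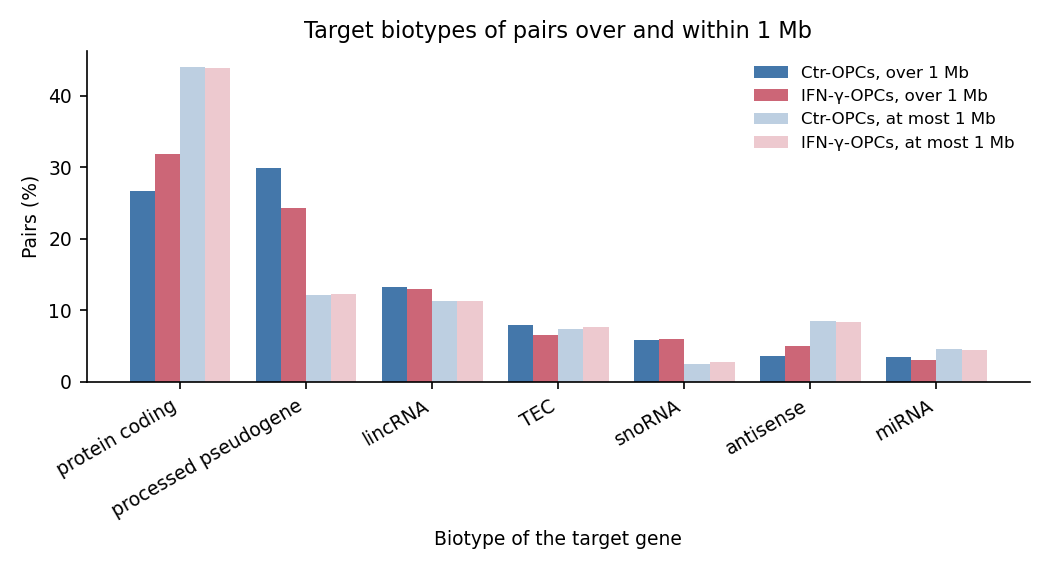
Percent of pairs by biotype of the target gene, for pairs over 1 Mb (full colour) and of at most 1 Mb (pale), in Ctr-OPCs (blue) and IFN-γ-OPCs (red). TEC stands for transcripts awaiting experimental evidence, and processed pseudogenes reach 29.96% and 24.3% of far pairs against 12.1% and 12.3% of nearer ones.

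Far targets were genes with little other input and weaker promoters. The gene total, that is, the denominator of the score, had a median of 0.277 in control OPCs and 0.341 in IFN-γ-OPCs over far targets, against 0.838 and 0.806 over targets of nearer pairs. Their median promoter activity quantile was 0.53 and 0.55, against 0.69 and 0.69. A total of 419 genes in Ctr-OPCs and 379 in treated OPCs were listed through far pairs alone, of which 145 and 139 were protein-coding. Most far targets had a single far element, in 70.5% of genes in control OPCs and 74.5% in IFN-γ-OPCs. The most far elements fell to the processed pseudogene Gm5274 in Ctr-OPCs, with 11, and to Tecrl, a gene of an enoyl-CoA reductase-like protein, in IFN-γ-OPCs, with 10, of which 8 had a contact of 0. The gene total of Tecrl was 0.0699. A total of 729 genes were far targets in both tables, or 32.2% of those in Ctr-OPCs and 29.1% of those in IFN-γ-OPCs.

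Scores of far pairs were low. Above 0.05, the cut-off for a connection in the study's methods, stood 271 far pairs in Ctr-OPCs (7.95%) and 269 in treated OPCs (7.63%), against 18.0% and 17.9% of nearer pairs. The far element was the top-scoring one of its gene in 25.03% and 23.9% of far pairs. For nearer pairs this held in 39.4% and 37.9%.

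The 5 highest-scoring far pairs of Ctr-OPCs had elements outside the high-activity loci. An element in a coding exon of Arhgap18 (chr10:26772264-26773185) was paired with the protein-coding gene 2310057J18Rik at 2214 kb, with an activity of 3.38, a contact of 0.0106 and a score of 0.211. An element in Clasp1 was paired with the long intergenic RNA gene 9330185C12Rik at 4615 kb with a score of 0.179. The snoRNA gene Gm25495 followed with 0.174 and an element in an intron of Pcdh9. The processed pseudogenes Gm4822 and Gm11408 had 0.155 and 0.135. None of these 5 pairs was listed in IFN-γ-OPCs. Contact in them was 4.69 to 44.6 times the power-law value, and the gene totals were at most 0.178.

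In IFN-γ-OPCs the 5 highest scores fell in part to the high-activity loci. The Gm33838 element scored 0.413 for Gm38346 at 2795 kb, with a contact of 0.00712. In Ctr-OPCs the same pair had a contact of 0 and a score of 0.0397. The Chl1 element scored 0.312 for the pseudogene Gm44108 at 3022 kb with a contact of 0.00581, against a contact of 0 and a score of 0.0262 in Ctr-OPCs. Both pairs thus had a measured contact in IFN-γ-OPCs alone. The activity of the Gm33838 element was 44.3 in the control and 50.8 with IFN-γ, and that of the Chl1 element 29.5 and 34.0. The pseudogene Gm4866 had 0.253 with a contact of 0.00711 in IFN-γ-OPCs, and 0.0284 with a contact of 0 in Ctr-OPCs.

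The highest far contact in either table belonged to Diaph2, which encodes a formin that nucleates actin. In IFN-γ-OPCs its element at chrX:131818350-131818849, 2069 kb away, had an activity of 0.505, a contact of 0.0575 and a score of 0.242. That contact was 88.0 times the power-law value. The element lay between genes, 1870 kb from the nearest protein-coding TSS, of Pcdh19. Diaph2 was not listed in Ctr-OPCs. The highest far contact there was 0.0306, 59.1 times the power law, for Nudt10, a gene of a Nudix hydrolase, at 2709 kb on the same chromosome. It was not shared either.

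Some elements held many far targets, although most held 1. A single far target was the case for 73.8% of far elements in control OPCs and 75.1% in IFN-γ-OPCs. The 10 elements with most far targets held 8.39% of far pairs in Ctr-OPCs and 9.42% in treated OPCs. Pairs of 1 element are not independent, since they share its activity, and targets in the same bin share its contact.

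The Gm33838 element (chr9:35305203-35305702) held most. It had 84 far targets in control OPCs and 76 in IFN-γ-OPCs, 59 of them in both. Its activity of 44.3 was the highest in Ctr-OPCs, and 50.8 was second in IFN-γ-OPCs. Contact was 0 for 81 of the 84 and 73 of the 76. Its far targets included Kcnj5, a potassium channel gene, which scored 0.1145 with a contact of 0.00171 in Ctr-OPCs and 0.0340 with 0 in IFN-γ-OPCs. They also held Chek1, a checkpoint kinase gene, at 0.0587 and 0.0712, and Stt3a, of the oligosaccharyltransferase, at 0.0963 and 0.0528. Snx19, a sorting nexin gene 4878 kb away, was a far target in IFN-γ-OPCs alone, at 0.170 and a contact of 0.00239. The sequence matched itself best at a shift of 234 bases, with 63.2% identity, which is the length of the mouse major satellite unit. It had 59 other places in the genome with at least 90% identity over 100 bp, and 83.6% of it was repeat-masked. Such places are alignments that hold an exact match of 64 bases, and they are not a copy number.

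The Gm26917 exon held an element of high GC content (chr17:39845261-39845975). It had 58 far targets in Ctr-OPCs and 63 in treated OPCs, 42 in both. Activity was 43.7 and 46.5, rank 2 and 3, and contact was 0 for 56 and 61 of the targets. It contained 92 CpG dinucleotides in 715 bases, had a GC content of 72.6% and no other place in the genome by the same measure. Of its bases 3.22% were repeat-masked and its best self-match was 39.5% in Ctr-OPCs. The ribosomal RNA gene CT010467.1 lay 378 bp away. A second element in this exon (chr17:39844275-39844774) had 20 and 17 far targets, 12 in both, all with a contact of 0. Far targets of the first were the metabolic gene Mut, at 0.0867 in control OPCs and 0.118 in treated OPCs, and the centromere gene Cenpq, at 0.0862 and 0.130. Others were Ptchd4, at 0.103 and 0.0595, and Gabbr1, a GABA-B receptor gene, at 0.0220 and 0.107. Its targets also held H2-M3, a gene of a non-classical MHC class I molecule, with 0.0339 in Ctr-OPCs and 0.0368 in treated OPCs, at a contact of 0 in both.

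The Chl1 intron element (chr6:103648952-103649451) had 46 far targets in control OPCs and 44 in IFN-γ-OPCs, 31 in both. Its activity was 29.5 and 34.0, rank 4 in both tables, and contact was 0 for 46 of 46 and 43 of 44. Cntn4, an adhesion gene 2028 kb away, scored 0.0695 and 0.0734. Crbn, which encodes cereblon, had 0.0400 and 0.0410, and Trnt1, a tRNA-modifying enzyme gene, had 0.0484 and 0.0438. It held 1 CENP-B box, had a GC content of 29.2% and shared a run of 77 bases with the Gm10800 element. It had only 2 other places in the genome, its best self-match was 42.5% and 36.0% of it was repeat-masked, all below the values of the Gm33838 element.

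Both remaining loci had far targets in IFN-γ-OPCs alone. The Gm10800 element (chr2:98666095-98666594) had 60 of them and, at 84.1, the highest activity of that table. Ctr-OPCs had no listed element there. Contact was 0 for 59 of the 60. It had 1 CENP-B box, 2 other places in the genome, a best self-match of 48.5% and 41.0% repeat-masked bases. Its targets included Lrrc4c at 0.0635, the recombinase genes Rag1 at 0.0450 and Rag2 at 0.0422, Traf6, a signalling ligase gene, at 0.0391, and Cd44 at 0.0338. The Gm21738 element (chr14:19415546-19416453) had 26 far targets, all with a contact of 0, and an activity of 19.0. An overlapping element in Ctr-OPCs had an activity of 4.96 and no far target. The Gm21738 sequence also matched itself best at 234 bases, with 62.3% identity, and had 32 other places in the genome.

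These 5 loci were singled out after their values were seen, for many far targets together with satellite-like features or a nearby rRNA gene. They are called high-activity here because their far elements were the most active ones in each table. At Gm21738 in Ctr-OPCs the element had an activity of 4.96 and no far target. They held 4 elements and 208 far pairs in Ctr-OPCs (6.10%), and 6 elements and 286 far pairs in IFN-γ-OPCs (8.11%). Contact was 0 in 97.6% of these pairs in both tables. They made up 28.1% of all far pairs with a contact of 0 in Ctr-OPCs and 49.1% in treated OPCs. Outside them the highest activity of a far element was 17.2 and 18.6. Whether repeat copies or the nearby rRNA gene bear on their activity was not tested.

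**Figure D4:**
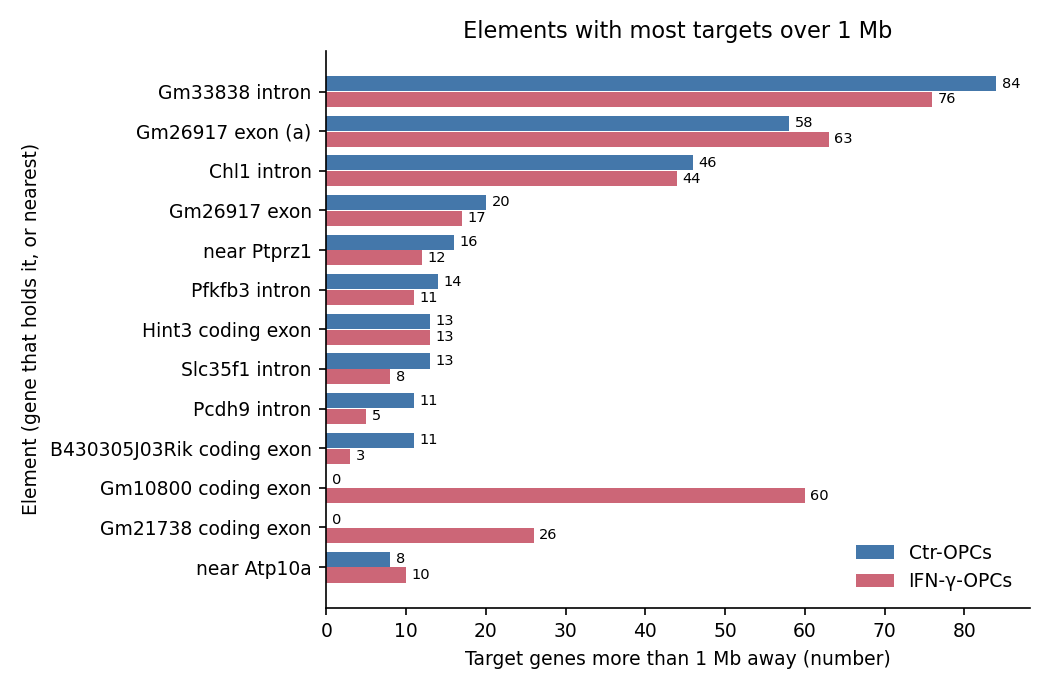
Number of target genes more than 1 Mb away for the 10 elements with most of them in either table, in Ctr-OPCs (blue) and IFN-γ-OPCs (red). Names give the gene that holds the element or the nearest one, (a) marks the longer of 2 elements in Gm26917, and the Gm33838 element leads with 84 and 76.

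Outside these 5 loci, the element upstream of Ptprz1 (chr6:22833608-22834993) had the most far targets in Ctr-OPCs, and its sequence had no other place in the genome. Ptprz1 encodes a receptor tyrosine phosphatase that is abundant in OPCs. The element lay 41.2 kb from its TSS, with a score for it of 0.137 in control OPCs and 0.0954 in IFN-γ-OPCs. Its activity ranked 8 and 10, at 10.85 and 9.57. It had 16 and 12 far targets, 9 in both, and contact was 0 for 16 of 16 and 10 of 12. Cadps2, a gene of dense-core vesicle release 1005 kb away, scored 0.0473 with a contact of 0 in Ctr-OPCs and 0.0658 with a contact of 0.000783 in IFN-γ-OPCs. Wasl, an actin regulator gene, had 0.0225 and 0.0359, with a contact of 0 in Ctr-OPCs and 0.00126 in treated OPCs.

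An element in an intron of Pfkfb3 (chr2:11535358-11535857), a gene of glycolytic control, had 14 far targets in control OPCs and 11 in IFN-γ-OPCs, and 1 in both. None was protein-coding and none had a contact of 0. In Ctr-OPCs 13 of the 14 were annotated miRNA genes 1021 to 1030 kb away. Mir669c, Mir297c, Mir466p and Mir467e shared a contact of 0.00088, since they lie in the same bin. This element thus counted many times for a small stretch of chromosome. Over all far pairs, 3408 and 3525 pairs lay in 3076 and 3139 distinct pairs of bins.

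Far pairs seldom recurred in the other table, although their elements did. A pair counted as recurring when the other table paired the same target gene with an element that shared 1 bp or more with it. This held for 391 far pairs in Ctr-OPCs (11.5%) and 391 in treated OPCs (11.1%). Over all pairs, near and far, 45.8% in control OPCs and 42.8% in IFN-γ-OPCs recurred. The element alone, whatever its target, overlapped one of the other table in 80.1% of far pairs in Ctr-OPCs and 74.4% in treated OPCs, against 72.0% and 68.1% of nearer pairs. Far pairs with a contact of 0 recurred more often than those with measured contact, at 35.2% (Wilson 95% interval 31.8 to 38.7) against 5.10% (4.33 to 6.00) in Ctr-OPCs, and 43.7% (39.6 to 47.8) against 4.84% (4.12 to 5.67) in IFN-γ-OPCs. For nearer pairs these shares were 31.8% against 47.8%, and 42.2% against 44.5%. The 5 high-activity loci gave 144 of the 391 recurring pairs, or 36.8%. Without them, 7.72% of far pairs in Ctr-OPCs and 7.63% in treated OPCs recurred. The share was then 21.97% where contact was 0 and 4.96% where it was above 0 in Ctr-OPCs, and 37.0% and 4.75% in IFN-γ-OPCs.

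A higher score did not bring far pairs to the recurrence of nearer ones. In Ctr-OPCs 9.32% of far pairs with scores from 0.02 to 0.03 recurred, 14.7% from 0.03 to 0.05, 17.7% from 0.05 to 0.1 and 17.9% above. For nearer pairs of the same classes it was 33.2%, 55.7%, 73.3% and 80.4%. In IFN-γ-OPCs far pairs had 9.35%, 12.1%, 21.6% and 30.3%, against 30.2%, 52.3%, 70.3% and 77.9%. The top class held 28 and 33 far pairs. In these classes the partner could have any listed score. Where both had to be above 0.05, 10.70% of far pairs above 0.05 recurred in Ctr-OPCs and 10.8% in treated OPCs, against 17.7% and 22.7% with any score of the partner.

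Loss of a pair had several forms. Of 3017 far pairs found in Ctr-OPCs alone, 44.2% had a target gene that the other table did not list. Gene and element were both listed there, but not together, for 43.3%, and the gene but not the element was listed for 12.5%. Of 3134 found in IFN-γ-OPCs alone, the shares were 40.5%, 43.2% and 16.4%. This split was not made for nearer pairs, whose target genes were more often listed in both conditions, as given above. It does not show what is particular to far pairs. Among target genes listed in both tables, 18.9% and 17.3% of far pairs recurred, against 57.4% and 55.1% of nearer pairs.

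Where gene and element were both listed but not as a pair, the score in the other table must have been under 0.02, and with its activity and gene total this sets an upper limit on the adjusted contact there. Of 1169 such far pairs of Ctr-OPCs with measured contact, 773 (66.1%) must have had a lower adjusted contact in IFN-γ-OPCs, 150 (12.8%) at least 2-fold lower and 12 at least 4-fold lower. For nearer pairs it was 62.1% and, at least 2-fold, 9.02%. Of 1276 far pairs of IFN-γ-OPCs, 1009 (79.1%) must have been lower in Ctr-OPCs, 246 (19.3%) at least 2-fold and 30 at least 4-fold, against 67.9% and 11.5% of nearer pairs. These pairs were picked for reaching the floor in one condition and missing it in the other. A lower contact in the other is thus partly set by that choice, and it was found in both directions. The limits also take the contact scales of the conditions as equal, which is not known.

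Far pairs in both tables were then set side by side. Mutual best matches at over 1 Mb numbered 388. Contact was 0 in both tables for 235 of them, 0 in Ctr-OPCs alone for 19, 0 in IFN-γ-OPCs alone for 13, and above 0 in both for 121. The median log2 ratio of the score, IFN-γ-OPCs over Ctr-OPCs, was 0.99 for the 19 (range -0.45 to 3.57) and -1.64 for the 13 (-2.27 to -0.39). Where contact was 0 in both tables it was 0.09 (-0.84 to 0.84), so that scores there differed in both directions.

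For the 121 pairs with contact in both tables, contact tended to be higher in IFN-γ-OPCs. The median log2 ratio of contact was 0.40 (quartiles -0.11 and 0.79), against 0.06 over all 29286 matched pairs with contact in both. Most of the latter lay at short range. Over all listed pairs from 0.5 to 1 Mb, matched or not, median contact was also higher in IFN-γ-OPCs, at 0.00390 against 0.00284 in Ctr-OPCs. A higher contact was thus not particular to far pairs. Contact was higher in IFN-γ-OPCs in 83 of the 121. It was at least 2-fold higher in 18 (14.9%) and at least 2-fold lower in 0, where over all matched pairs 4.34% were at least 2-fold higher and 2.73% lower. Contact in Ctr-OPCs and IFN-γ-OPCs had a Spearman correlation of 0.73 over the 121 pairs and 0.91 over all matched pairs. These values are descriptions, since pairs share bins and each condition is 1 map whose depth is unknown.

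Of these 121 pairs, 46 had a protein-coding target, 25 a processed pseudogene and 19 a long intergenic RNA gene. Contact of at least 0.005 in both tables was found for 6. By the smaller of the 2 contacts the first was the pseudogene Gm13458 with 0.0108 in control OPCs and 0.0132 in IFN-γ-OPCs, 1195 kb from its element. Nkain2, whose product binds the sodium pump, followed among protein-coding genes with 0.0108 and 0.00884, or 9.90 and 8.11 times the power law. Its element (chr10:31742371-31742870) lay in an intron of Nkain2 itself, 1148 kb from the TSS. A far element inside its own target gene was otherwise found for Lrp1b in Ctr-OPCs and for Galntl6 and Kcnip4 in IFN-γ-OPCs, all very long genes.

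Next among protein-coding genes by the smaller of the 2 contacts came Cr2, a complement receptor gene, with 0.00479 in Ctr-OPCs and 0.00627 in treated OPCs. Nap1l5, of the nucleosome assembly protein family, had 0.00477 and 0.00388, and Utp23, a ribosome biogenesis gene, 0.00345 and 0.00393. This order favours pairs whose 2 contacts are alike. One element (chrX:71816475-71816974) served both Nsdhl, a cholesterol synthesis gene, and Cetn2, a centrin gene, with the same contact of 0.00339 and 0.00335, as the 2 TSSs share a bin. Itga4, the integrin alpha-4 gene, had 0.00347 and 0.00313. Plpp3, a lipid phosphatase gene, had 0.00364 and 0.00303, with an element of activity 6.71 and 5.47.

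Contact of some matched far pairs was several times higher in IFN-γ-OPCs. The largest ratios among protein-coding targets were those of Akirin2, Aff2, Akain1 and Ppic. Akirin2, a nuclear cofactor gene, had 0.000271 in control OPCs and 0.00170 in IFN-γ-OPCs, at activities of 7.28 and 3.48 and scores of 0.0229 and 0.0214. Its first contact was the smallest above 0 of any far pair in Ctr-OPCs, while the smallest in IFN-γ-OPCs was 0.000523. Aff2 on the X chromosome, a gene of a nuclear factor, had 0.00265 and 0.0114, at activities of 1.24 and 0.974. Its antisense partner Gm14705 shared element and values. Akain1, of an inhibitor of A-kinase anchoring, had 0.00103 and 0.00328, and Ppic, the cyclophilin C gene, 0.000655 and 0.00203. Each is a single value per condition.

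Activity moved less, over a wider set of pairs. For the 162 matched elements of all 388 matched far pairs, with or without measured contact, the median log2 ratio was -0.08. Over all 17223 matched elements it was -0.09. Among the 162, activity was at least 2-fold higher in IFN-γ-OPCs in 1 and lower in 2, where over all matched elements 2.73% were higher and 3.61% lower.

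Gene lists were then followed. Of 51 genes of the interferon-gamma response, among them MHC and Gbp genes but not H2-M3, 33 were targets in Ctr-OPCs and 43 in treated OPCs. None of their 75 and 142 pairs was over 1 Mb. Of 26 oligodendrocyte lineage genes, 25 were targets in both tables, and far pairs were 1 of 116 in Ctr-OPCs and 5 of 110 in IFN-γ-OPCs. The 1 in Ctr-OPCs was Mog, a myelin glycoprotein gene, with the Gm26917 element at a contact of 0, and it recurred at scores of 0.0219 and 0.0237. The others in IFN-γ-OPCs were Sox9, a glial transcription factor gene, with a contact of 0.0131 and a score of 0.0270, Vcan, the versican gene, with 0.0117 and 0.0227, and Nxph1 with 2 elements. Far pairs were 0.862% and 4.55% of the pairs of this list, where they made up 5.11% and 4.93% of all pairs.

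Adhesion and guidance genes, a list chosen because its genes are long, were also followed. Of their 170 pairs in Ctr-OPCs 18 (10.6%) were far, in 10 of 52 listed genes, and of 202 in IFN-γ-OPCs 22 (10.9%), in 17 of 56. In genes this was 19.2% and 30.4%, where 8.77% of all target genes in Ctr-OPCs and 9.43% in treated OPCs had a far pair. Of these pairs 2 recurred (11.1% and 9.09%, near the 11.5% and 11.1% of all far pairs), Cntn4 with the Chl1 element and Cdh9, a cadherin gene, with an intergenic element 1073 kb away at 0.0233 and 0.0310. Both had a contact of 0 in both tables. The highest scores with measured contact were 0.0854 for Cdh9 in Ctr-OPCs, at 4025 kb with a contact of 0.0119, and 0.0908 for Robo1, a Slit receptor gene, in IFN-γ-OPCs, at 1427 kb with 0.00775. Neither of these recurred. Sema3c, Sema3d and Cntn5 had far pairs in both tables, with different elements.

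The SOX core ACAAAG, bound by the SOX transcription factors of the oligodendrocyte lineage, was found in 52.2% of 4327 elements of far pairs over both tables, against 49.6% of 64444 others, and the CENP-B box TTCGNNNNANNCGGG in 5 elements (0.116%) against 0.0667%. Both strands were searched. Elements were not merged between the conditions, so an element with shifted ends counted for each, as the Chl1 element with its CENP-B box did. Elements with at least 10 other places in the genome were 47 of 2076 in Ctr-OPCs (2.26%) and 50 of 2265 in IFN-γ-OPCs (2.21%). A match of letters is no binding site.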

How the data were processed

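The 6 H3K27ac-HiChIP libraries were 3 of Ctr-OPCs and 3 of IFN-γ-OPCs, grouped by the treatment label. Their predictions were deposited as 1 full table per condition, so no replicate value exists and the depth per library is unknown. HiC-Pro and mm10 are named in the submitters' processing notes. Versions are not given in the sources used here. Per the study's methods, bulk ATAC-seq (with reads of low mapping quality removed) and CUT&RUN for H3K27ac gave the activities at default settings, and HiChIP gave the contacts.

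Element activity was deposited as a signal, made by the authors from the coverage of both assays. The ABC score was deposited as a fraction of the gene total. The contact columns and the product of activity and contact were deposited as score values on an open scale. Distances, positions (printed 1-based) and the promoter quantile were other values deposited by the authors. The shorter tables and browser files repeat these pairs and were not needed.

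Pairs above 1000000 bp were selected. Recurrence needed the same target gene and a shared stretch of 1 bp or more, and values were compared between mutual best matches. The gene total was the product of activity and adjusted contact divided by the score. Biotypes, TSSs and exons came from the GENCODE annotation of GRCm38, by gene ID: 2233 of 2261 and 2475 of 2508 IDs matched with their version. Other places in the genome were BLAST 2.17.0 alignments of at least 100 bp at 90% identity that held an exact match of 64 bases, apart from the element itself. Alignments at one locus counted separately and more diverged copies were missed, so these are not copy numbers. The work used matplotlib 3.10.9, SciPy 1.17.1, NumPy 2.4.6 and pandas 2.3.3 under Python 3.11.15, and was tested on simulated data.

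The members, gene lists and comparisons were chosen with earlier results of these data known. The rule for names took the 5 elements with most far targets in each table, the 5 longest, highest-scoring and highest-contact pairs of each, the 10 highest-scoring pairs with a protein-coding target, the 10 recurring pairs with the highest mean score, and far targets of the lists. Those a result turned on are printed. Other names, such as further targets of these elements, genes with most far pairs, the Pfkfb3 element and pairs with contact in both tables, were chosen after their values were seen. A further sequence motif is not reported here. With 1 table per condition no p-value was computed. Alternatives were limits of 500 kb and 2 Mb, scores above 0.05, repeated elements left out, stricter overlap and other units of counting.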

Additional observations from a re-analysis of the deposited data

How the results depend on the processing

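No paired analysis was possible because each condition had 1 table pooled over its 3 libraries, so the replicate numbers in the labels belong to no column, and for the same reason no library could be left out. Values are given for Ctr-OPCs and then IFN-γ-OPCs. With a limit of 500 kb there were 6393 and 6790 pairs, 14.5% and 13.7% recurred, the top 10 elements held 5.62% and 5.71%, contact was 0 in 18.0% and 13.2%, and median activity in Ctr-OPCs was 2.24. With 2 Mb there were 1371 and 1555 pairs, the top 10 held 14.7% and 16.5%, and in IFN-γ-OPCs contact was 0 in 18.6% and median activity was 1.98. With a score above 0.05, also required of the partner in the other table, there were 271 and 269 pairs, 10.70% and 10.8% recurred (17.7% and 22.7% with a partner of any score), the top 10 held 18.5% and 23.4%, contact was 0 in 16.6% and 18.2%, targets were protein-coding in 21.8% and 25.7%, and median activity in IFN-γ-OPCs was 2.47. Without elements that had 10 or more other places in the genome, 9.75% and 9.38% recurred, the top 10 held 6.52% and 7.41%, and contact was 0 in 19.2% and 13.5%. Without the 5 high-activity loci, an alternative chosen after seeing the data, 7.72% and 7.63% recurred, the top 10 held 3.69% and 3.00%, contact was 0 in 16.2% and 8.92%, protein-coding targets were 30.3% in IFN-γ-OPCs, and median activity was 1.98 and 1.94. Over genes in both tables alone 18.9% and 17.3% recurred. With each element counted once, whatever its target, 71.1% and 68.3% recurred and median activity was 1.53 and 1.499. With each gene counted once 29.5% and 34.8% of targets were protein-coding. The cause of these shifts was not tested. Of 72 values 25 stayed within the 95% interval of the reported value, or within 1.5 times for a number of pairs, among them the shares of 10.70% and 10.8%. The unknown depth of the contact maps limits what a contact of 0 or an absent pair can mean.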
